A study of Mus musculus with 102 samples.

Results

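Epidermal stem cells of aged mice under calorie restriction (CR) were compared between the zeitgeber times ZT12 (4 arrays) and ZT0 (5 arrays). The arrays were chosen by their labels alone, as those of mice aged 83 to 97 weeks on the restricted diet at the time points T12 and T0. They are 9 arrays, beside 93 others in the study, and 2 of its 24 groups of age, diet and time point. Zeitgeber time counts hours from lights on, so ZT0 opens the resting phase of a mouse. All mice, controls included, were of strain C57B6/J and carried the Per1-Venus BAC transgene, in which a fluorescent protein reports on Per1. Aged CR mice began the diet at 55 to 69 weeks, had their food lowered by 10% per week over 3 weeks, and then received 30% less than the freely fed mice ate, for 25 weeks. Aged control mice of the same age ate control diet freely and are represented by 4 arrays at ZT12 and 4 at ZT0. Adult CR mice, 47 to 57 weeks old, underwent the same restriction and are represented by 5 arrays at each of these times. The labels give neither the sex, nor the hour of feeding of the restricted mice, nor the way the cells were isolated. On each collection day 1 mouse per diet was killed, and all mice of a day belonged to the same time point. The design names 4 mice per time point and diet, whereas aged CR at ZT0 has 5 arrays. Whether the additional array comes from a further mouse is not stated, so the p-values measure the spread between arrays. Each collection day therefore lies within 1 time point, with 1 mouse per diet, and the labels give no array its day. The spread between arrays of a group thus includes that between days, and the effect of the day was not tested.

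The molecular clock is a loop in which the activators Clock and Arntl (Bmal1) drive the Per and Cry genes, whose proteins then repress their own activators. The same activators drive the output factors Dbp, Tef and Hlf, which bind D-box elements in further genes. In mouse epidermis the loop is known to run in basal keratinocytes and to place DNA replication and mitosis at different hours of the day. Glucocorticoid from the adrenal gland peaks in nocturnal rodents before the active phase and reaches skin through the blood. Feeding sets cholesterol synthesis, which insulin and the SREBP factors control, and the response to amino acid shortage, which the factor Atf4 controls.

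Levels are log2 values, with 1 unit being a doubling, and the tests ran over 13383 genes in a limma model that held a mean for each of the 24 groups. A gene was called at a Benjamini-Hochberg adjusted p under 0.05, and changes are ZT12 minus ZT0, as log2 difference ± standard error. The groups compared are among the less even ones: the root mean square SD was 0.32 at ZT12 and 0.44 at ZT0, against 0.29 over all groups. Replicate 4 of ZT0 stood apart, with a root mean square distance of 0.73 from the mean of its group. The other ZT0 arrays lay at 0.38 to 0.45 and the ZT12 arrays at 0.32 to 0.41. The 3′ over 5′ level of Gapdh, a sign of RNA integrity, was 0.04 to 0.23 on the ZT12 arrays, against 0.00 to 0.06 on ZT0 replicates 1, 2 and 5, 0.53 on replicate 3 and 0.58 on replicate 4. With this Gapdh level as a covariate 939 genes (7.02%) passed the threshold given above, of which 838 also did so without it. Xist exceeded the Y-linked genes on 1 of 4 ZT12 arrays and 3 of 5 ZT0 arrays.

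The keratins and adhesion genes of basal epidermis led the arrays. Krt14 averaged 12.45, Col17a1 12.38, Krt5 12.36 and Krt15 11.72 over the 9 arrays, all at or above the 99.5th percentile of genes. The integrin Itga6 (11.03) and the basal regulator Trp63 (11.46) were also near the top. Krt1 (11.77) and Krt10 (11.65), keratins of differentiating cells, stood as high. Of 12 bulge markers of hair follicle stem cells 8 lay above the filter on dim genes, with Sox9 at 8.82, and Cd34, Lgr5, Lhx2 and Tbx1 lay below it. Markers of other cell types lay on both sides of the filter. Of 10 Langerhans cell and macrophage markers 7 were above it, though not Cd207, Itgam or Ptprc, and the mean level of the list was 5.59 to 5.98 at ZT12, against 5.71 to 6.01 at ZT0. All 7 measured T cell markers were above it, with a mean of 5.37 to 5.57 at ZT12, against 5.46 to 6.00 at ZT0. Of 9 fibroblast markers 5 were above it, Pdgfra, Col1a2, Lum and Dpt being below, with a mean of 5.20 to 5.48 at ZT12, against 5.23 to 5.77 at ZT0. Of 8 melanocyte markers 3, of 7 endothelial markers 3 and of 4 measured adipocyte markers 1 were above it, and Tyr, Cdh5 and Adipoq were below. No tested marker of these 6 lists was called, although all 7 T cell markers had a negative change. In 2 other lists, Hba-a1 of 3 red blood cell markers was called lower, as were Krt25 and Krt71 of 10 hair shaft and inner root sheath markers. These were named after their values were seen, and 0 of them kept the call in all 9 omissions. None of 6 muscle or 4 sebaceous gland markers was called, the latter all with a negative change. The part of these cell types in the results was not tested. In such bulk samples, fewer cells of a type and less RNA per cell cannot be told apart.

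Of the 13383 genes, 1048 (7.83%) were called, 672 (5.02%) higher and 376 (2.81%) lower at ZT12. The median change over all genes was 0.03. At an unadjusted p under 0.05 there were 3097 genes. The arrays of the groups did not overlap for 522 (49.8%) of the called genes, and for 774 (5.78%) of all genes, with ZT12 higher in 3.92% and lower in 1.86%. Without ZT0 replicate 4 the count was 816 (6.1%), of which 399 (2.98%) were higher and 417 (3.12%) lower. Of these, 596 belong to the 1048, which is 56.9% of them, and all 1048 kept their direction. Leaving out 1 array changed the count most in 3 cases, to 381 without ZT12 replicate 3, 695 without ZT12 replicate 2 and 1614 without ZT0 replicate 2. A core of 249 genes (1.86%), 169 (1.26%) higher and 80 (0.598%) lower, was called whichever of the 9 arrays was left out. When each array was centred on its median, 653 genes were higher and 665 lower, so the excess of higher genes over lower ones depends on the scaling.

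The number of calls rests on a spread shared over all arrays of the study. With a spread estimated for each group, as a weight shared by all genes, 37 genes (0.276%) were called. With the 9 arrays alone 9 genes (0.0672%) were called, of which 8 (0.0598%) were higher. The 8 arrays left without ZT0 replicate 4 also gave 37 (0.276%) on their own. Per2, Tsc22d3, Tef, Hlf and Fkbp5 were called in all of these fits. Each of those genes rose at ZT12, and no array of one time point reached the range of the other.

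**Figure D1:**
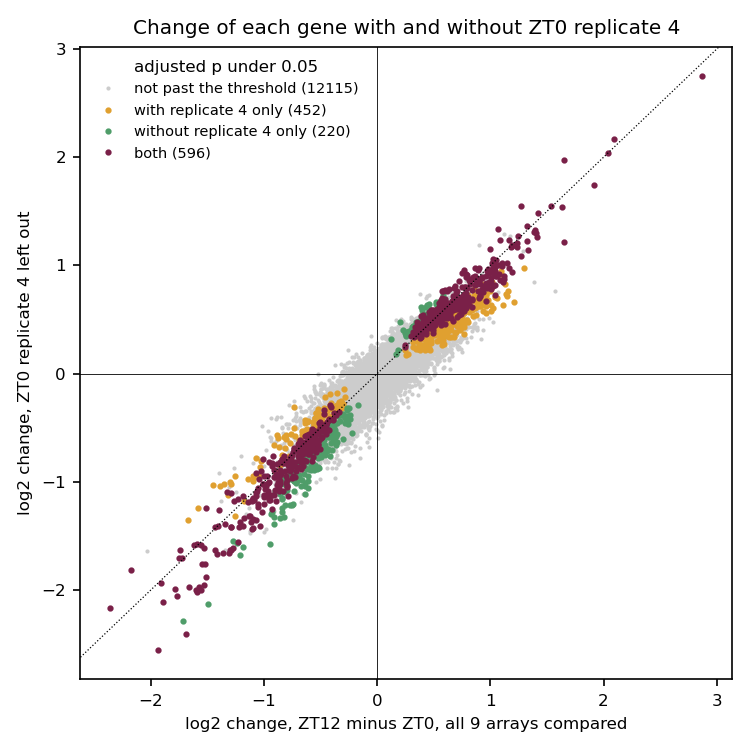
Log2 change (ZT12 minus ZT0, aged CR) of each of the 13383 tested genes with all 9 arrays (x axis) and with ZT0 replicate 4 left out (y axis), coloured by which fit called the gene. Calls shared by both fits (596) lie along the diagonal, 452 genes were called only with the array in, and 220 only with it out.

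Some repressors of the clock were among the genes that were higher at ZT12. Of the 11 tested repressors 5 were called, all higher, and the median change of the list was 0.56 against 0.03 over all genes. Per2 read 8.36, 7.97, 7.71 and 8.15 on the ZT12 arrays, against 6.03, 5.98, 5.85, 6.03 and 6.16 on the ZT0 arrays. The ZT0 arrays were nearly level with each other, and the lowest ZT12 array stood well above them. The rise of Per2 was 2.04 ± 0.18, or 4.11-fold (adjusted p = 1.23e-14). Cry2, the partner of the Per proteins in repression, read 8.69, 8.34, 8.22 and 8.70 at ZT12, against 7.14, 7.74, 7.43, 7.24 and 7.74 at ZT0. Its groups did not overlap and it rose by 1.03 ± 0.18 (adjusted p = 0.000114). Ciart, a repressor that binds Arntl, read 6.83, 6.89, 6.86 and 6.76 at ZT12, against 5.92, 5.97, 6.26, 6.36 and 6.11 at ZT0. It rose by 0.71 ± 0.15 (adjusted p = 0.00147), with ZT12 arrays that were almost equal.

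Per3, the third Per gene, showed the uneven side of the ZT0 group. It read 8.66, 8.44, 7.92 and 8.51 at ZT12, against 5.93, 6.03, 7.27, 8.04 and 6.39 at ZT0. Replicate 4 of ZT0 overlapped the ZT12 arrays and replicate 3 came close to them, while the other ZT0 arrays lay far below. Per3 rose by 1.65 ± 0.30 with all arrays and by 1.98 without replicate 4 (adjusted p = 0.000264 and 6.92e-06). Per1 read 9.52, 9.16, 8.79 and 9.29 at ZT12, against 8.17, 8.85, 7.83, 9.17 and 8.19 at ZT0. Replicates 2 and 4 of ZT0 fell among the ZT12 arrays. Its rise of 0.75 ± 0.23 (adjusted p = 0.0269) was lost when any 1 of 6 arrays was left out, with an adjusted p of up to 0.114. It was 0.93 without ZT0 replicate 4 (adjusted p = 0.00745). Whether the Per1 probe set also reads the transgene was not tested.

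Of 9 tested output factors 5 were called higher and none lower, with a median of 0.77. Tef read 9.36, 9.40, 9.20 and 9.41 at ZT12, against 7.74, 8.20, 8.41, 8.15 and 8.24 at ZT0. Its groups were clearly apart, and it rose by 1.19 ± 0.15 (adjusted p = 1.20e-08). Hlf read 9.39, 9.86, 9.61 and 9.34 at ZT12, against 8.05, 8.23, 8.28, 7.88 and 8.37 at ZT0. It rose by 1.38 ± 0.18 (adjusted p = 1.96e-07), with every ZT12 array about 1 unit or more above the ZT0 arrays. Another probe set of Hlf, with a mean level of 8.79, changed by only 0.297. Wee1, the kinase that holds Cdk1 back before mitosis, rose by 0.77 ± 0.17 (adjusted p = 0.00204), to 10.44 to 10.64 at ZT12, against 9.03 to 10.24 at ZT0. Dbp overlapped: it read 7.28, 7.29, 6.62 and 7.49 at ZT12, against 5.77, 6.75, 5.91, 6.28 and 6.01 at ZT0. Its rise of 1.02 ± 0.29 (adjusted p = 0.0202) did not hold without ZT0 replicate 1 or 3 or without ZT12 replicate 2 or 4 (adjusted p 0.0501 to 0.0653). Noct (Nocturnin) went the other way, with 6.82 to 8.82 at ZT12, against 8.08 to 10.49 at ZT0. Its change of -1.24 ± 0.46 missed the threshold (adjusted p = 0.0754) and passed it without ZT0 replicate 4 (-1.56, adjusted p = 0.0317).

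On the probe sets used, most activators of the clock were not called between these hours. Arntl averaged 8.34 ± 0.62 at ZT12 and 8.79 ± 0.73 at ZT0 (SD, n = 4 and 5), a change of -0.44 ± 0.44 (adjusted p = 0.586). The changes of Clock (-0.25 ± 0.20), Npas2 (-0.12 ± 0.15) and Arntl2 (0.06 ± 0.15) also missed the threshold. Without ZT0 replicate 4 the changes were -0.70 for Arntl, -0.36 for Clock, -0.01 for Npas2 and 0.14 for Arntl2 (adjusted p 0.333 to 0.978). Another probe set of Npas2, not tested on its own, changed by -0.858. Rora, a nuclear receptor that activates Arntl, was the only called activator, at 0.50 ± 0.14 (adjusted p = 0.0146), and its call was lost without ZT0 replicate 3 or 4 (adjusted p = 0.0688 and 0.0536). Nr1d2, the repressor of Arntl, changed by 0.56 ± 0.20 and missed the threshold (adjusted p = 0.0661). Cry1 (-0.10 ± 0.34), Nfil3 (-0.10 ± 0.28), Bhlhe40 (-0.49 ± 0.25), Csnk1d (-0.24 ± 0.18) and Csnk1e (0.09 ± 0.17) did so too. Among the output factors, Klf9 (-0.01 ± 0.18), Klf10 (0.25 ± 0.20) and Usp2 (-0.01 ± 0.32) were not called. Another probe set of Klf9 changed in the opposite direction (0.746), and another of Usp2 changed by -0.974.

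**Figure D2:**
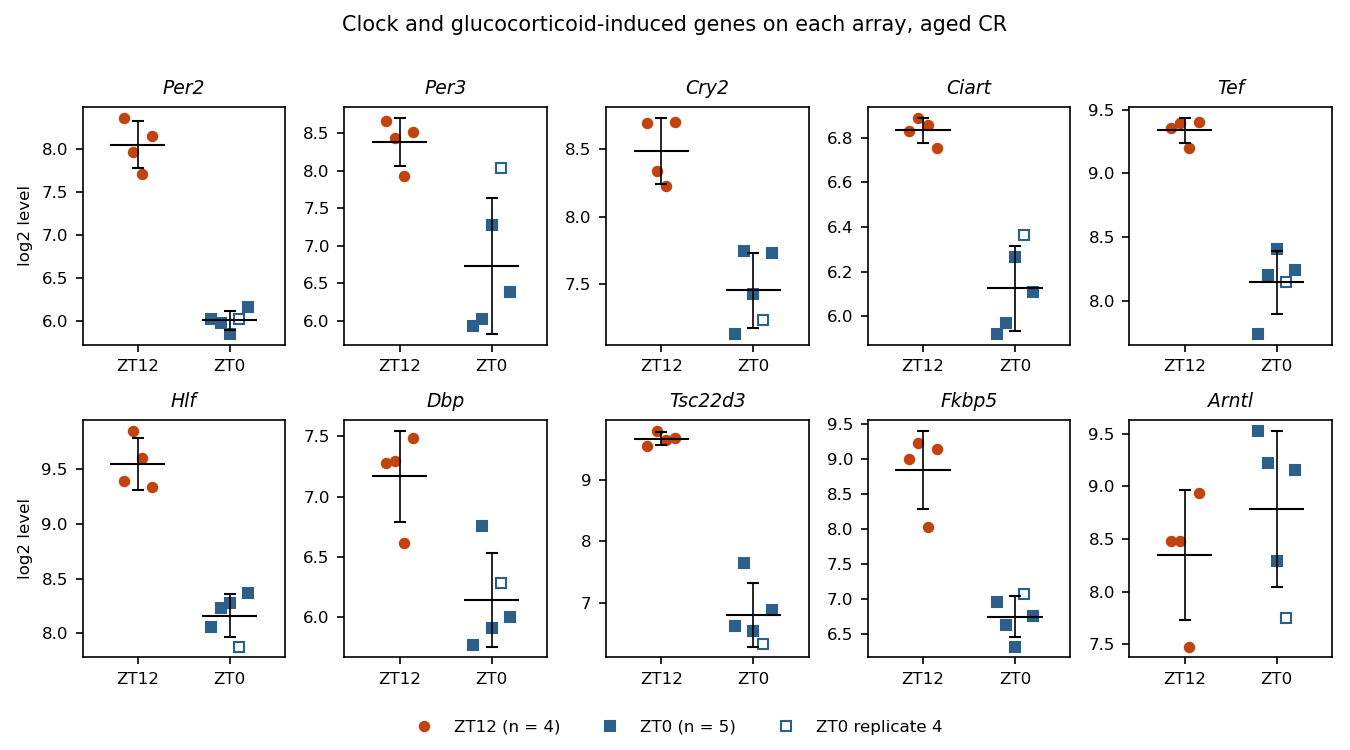
Log2 level of 10 clock and glucocorticoid-induced genes on each array of aged CR, ZT12 on the left (n = 4) and ZT0 on the right (n = 5, replicate 4 as an open square), with the mean and SD as black lines. Per2, Cry2, Ciart, Tef, Hlf, Tsc22d3 and Fkbp5 show no overlap between the groups, whereas Per3, Dbp and Arntl do.

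The promoters of these genes, taken as the 250 bases before the gene start in RefSeq (GRCm38.p6), were read for the elements of the clock loop. The E-box bound by Clock and Arntl was searched as CACGTG, which reads the same on both strands, and the D-box as TTATGNAA on both strands. Of the 10 called repressors and output factors 8 were in the table. Here and in the later searches, a gene counted when the promoter of any of its starts held the element. The share over all is per promoter, so the count and the share are unlike measures. An E-box stood in the promoters of Tef, Ciart and Per1, that is 3 of 8 genes, where 6.02% of all 32851 promoters hold one. Tef held one before another start too, at chr15:81811241-81811316. A D-box stood in those of Per3 and Per1, that is 2 of 8, against 3.07% of all. Such a match is a description of the sequence and not a measured site. The stretches around the matches are shown because they are where the loop's own elements lie beside the genes that rose, with the element in capitals. They run 5′ to 3′ on the strand of the gene, at chr15:81802511-81802586 (plus strand) for Tef, chr3:95882246-95882321 (minus) for Ciart with 2 of its 3 E-boxes, chr11:69098748-69098823 (plus) for the E-box of Per1, chr4:151044828-151044905 (minus) for Per3 and chr11:69098890-69098948 (plus) for the D-box of Per1.
Tef E-box: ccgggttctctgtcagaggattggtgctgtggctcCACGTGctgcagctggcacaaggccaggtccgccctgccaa
Ciart E-boxes: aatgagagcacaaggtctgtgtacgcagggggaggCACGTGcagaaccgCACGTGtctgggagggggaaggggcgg
Per1 E-box: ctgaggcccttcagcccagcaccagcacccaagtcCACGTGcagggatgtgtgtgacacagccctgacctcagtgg
Per3 D-box: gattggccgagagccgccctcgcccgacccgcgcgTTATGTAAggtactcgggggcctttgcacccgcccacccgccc
Per1 D-box: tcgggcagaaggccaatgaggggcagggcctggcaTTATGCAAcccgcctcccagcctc

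The largest rise among the named genes belonged to Tsc22d3 (GILZ), a leucine zipper protein that glucocorticoid induces and that is also listed with the clock outputs. It read 9.56, 9.80, 9.65 and 9.69 at ZT12, against 6.62, 7.65, 6.53, 6.32 and 6.88 at ZT0. The ZT12 arrays lay within a narrow band far above the ZT0 arrays, and the rise was 2.87 ± 0.27, or 7.33-fold (adjusted p = 3.30e-13). Fkbp5, a co-chaperone of the glucocorticoid receptor that the hormone induces, read 8.99, 9.22, 8.02 and 9.14 at ZT12, against 6.96, 6.64, 6.33, 7.08 and 6.77 at ZT0. It rose by 2.09 ± 0.35, or 4.26-fold (adjusted p = 3.95e-05), although ZT12 replicate 3 was lower than its group. Zbtb16, a transcription factor induced by glucocorticoid, rose by 1.32 ± 0.33 (adjusted p = 0.00669) with 1 pair of overlapping arrays, 9.59 at ZT12 replicate 3 and 9.65 at ZT0 replicate 2. With Per1, these made 4 of 16 tested glucocorticoid targets called higher and none lower, while the median of the list was 0.09. Nr3c1, the receptor itself, changed by 0.46 ± 0.14 (adjusted p = 0.0336), a call that 6 of the 9 omissions ended and that read 0.32 without ZT0 replicate 4 (adjusted p = 0.19). The palindromic glucocorticoid response element, searched on both strands, stood in 0.39% of all promoters and in 0 of the 3 called targets that the table held.

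Of 34 genes of DNA replication 12 were called higher at ZT12 and none lower, with a median of 0.46. Mcm3, a subunit of the replicative helicase, read 8.19, 7.99, 7.95 and 8.29 at ZT12, against 6.95, 7.38, 6.84, 6.45 and 7.60 at ZT0. All ZT12 arrays were above all ZT0 arrays, and the rise was 1.06 ± 0.25 (adjusted p = 0.00487). Gins2, of the GINS complex that travels with the helicase, read 8.97, 9.24, 9.38 and 8.94 at ZT12, against 7.91, 8.60, 7.96, 8.07 and 8.25 at ZT0, and rose by 0.98 ± 0.19 (adjusted p = 0.000842). The primase subunit Prim1 rose by 0.69 ± 0.16 (adjusted p = 0.00441) and the thymidylate synthase Tyms by 0.77 ± 0.19 (adjusted p = 0.00612), each without overlap. The call of Tyms was lost without ZT12 replicate 3 (adjusted p = 0.0855). The count was 9 without ZT0 replicate 4 and 6 without ZT12 replicate 3, and Mcm3, Mcm6, Gins2, Rfc5 and Prim1 were called in all 9 omissions. Mcm6 and Rfc5 were named after their values were seen.

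Among the genes of the passage from G1 into S phase, 4 of 19 were called, all higher, with a median of 0.10. Ccnd1, the cyclin that opens G1, read 11.24, 11.19, 11.20 and 11.25 at ZT12, against 10.33, 10.62, 10.63, 10.81 and 10.69 at ZT0. The ZT12 arrays were almost identical and the rise of 0.61 ± 0.09 (adjusted p = 2.09e-06) was small but well outside the spread. Cdkn1c, an inhibitor of cyclin-dependent kinases, rose by 0.62 ± 0.15 (adjusted p = 0.006), with levels of 5.35 to 5.94 at ZT12, against 4.86 to 5.33 at ZT0. E2f1 (0.47 ± 0.12) and Ccnd2 (0.58 ± 0.16) were called as well. The call of E2f1 was lost without ZT12 replicate 2 (adjusted p = 0.051), and that of Ccnd2 without ZT0 replicate 3 or 4 (adjusted p = 0.0508 and 0.0759). Of 22 DNA repair genes 5 were called, all higher, and the count was 2 without ZT0 replicate 3 or 4, 3 without ZT12 replicate 1 or 4, 1 without ZT12 replicate 3 and 8 without ZT0 replicate 2. The damage kinase Atm was called in all 9 omissions, at 8.42, 8.42, 8.37 and 8.46 at ZT12, against 7.59, 7.93, 7.66, 7.29 and 7.79 at ZT0 (0.77 ± 0.16, adjusted p = 0.00166). Rad50, Apex1, Xrcc6 and Chek1, the last named after its value was seen, made up the others.

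Of 31 mitotic genes 3 were called lower at ZT12 and none higher, 26 had a negative change, and the median was -0.32. Ttk, the spindle checkpoint kinase, read 7.14, 6.75, 7.24 and 7.22 at ZT12, against 7.97, 7.63, 7.78, 7.96 and 8.28 at ZT0, a change of -0.83 ± 0.23 (adjusted p = 0.0144). The spindle motor Kif11 read 7.13, 6.60, 7.13 and 7.43 at ZT12, against 8.00, 8.32, 7.82, 7.79 and 7.98 at ZT0 (-0.91 ± 0.28, adjusted p = 0.0285). The cyclin Ccnb2, which activates Cdk1, read 6.20 to 6.66 at ZT12, against 6.92 to 7.75 at ZT0 (-0.86 ± 0.28, adjusted p = 0.0403). None of the 3 overlapped between the times, yet none kept its call in all omissions: 0 of the 31 were called without ZT12 replicate 2 and 1 without ZT12 replicate 3.

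**Figure D3:**
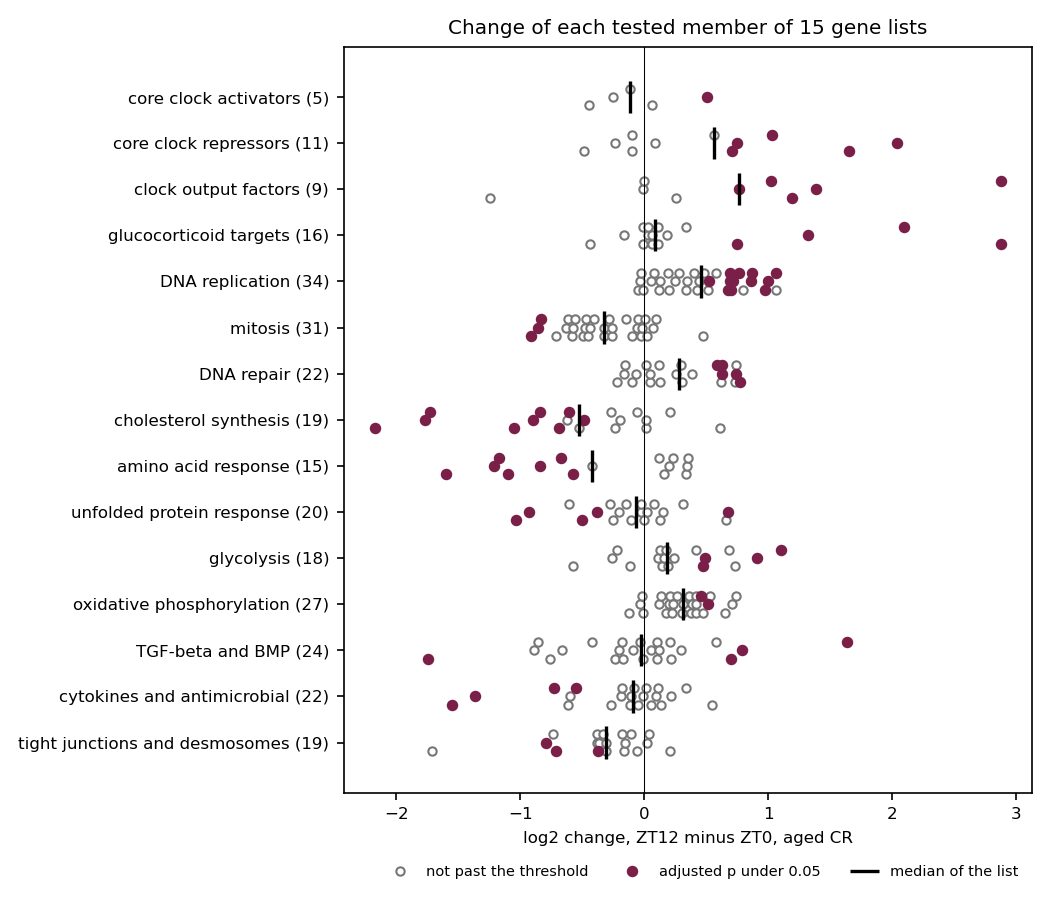
Log2 change (ZT12 minus ZT0, aged CR) of each tested member of 15 gene lists, with the number tested in brackets, filled circles for genes with an adjusted p under 0.05, open circles for the others and a vertical bar at the median of the list. The medians of the clock repressors (0.56), the output factors (0.77) and the replication genes (0.46) lie to the right of 0, and those of cholesterol synthesis (-0.53) and the amino acid response (-0.42) to the left.

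Of 19 genes of cholesterol synthesis 9 were called lower at ZT12 and none higher, with a median of -0.53. Insig1, which retains the SREBP factors in the endoplasmic reticulum and is itself their target, read 8.64, 7.85, 6.37 and 8.56 at ZT12, against 9.51, 8.90, 10.61, 11.44 and 9.66 at ZT0. The groups did not overlap but each spread widely, with ZT12 replicate 3 lowest and ZT0 replicate 4 highest. The change of -2.17 ± 0.48 (adjusted p = 0.00225) was -1.82 without ZT0 replicate 4 (adjusted p = 0.0149). Idi1, which makes the isoprenoid building block, read 8.63, 7.59, 7.12 and 8.37 at ZT12, against 9.98, 8.81, 9.70, 9.75 and 10.05 at ZT0 (-1.73 ± 0.37, adjusted p = 0.00166). The squalene synthase Fdft1 read 7.19, 7.34, 7.47 and 7.38 at ZT12, against 8.04, 7.63, 8.07, 7.95 and 8.46 at ZT0 (-0.69 ± 0.16, adjusted p = 0.00365). Sc5d, a late enzyme of the pathway, changed by -1.05 ± 0.24 without overlap (adjusted p = 0.00365). Insig1, Idi1, Fdft1 and Sc5d were the 4 genes called in all 9 omissions. Sqle, the squalene epoxidase, changed by -1.77 ± 0.45 (adjusted p = 0.00863), and its call was lost without ZT12 replicate 3 (-1.32, adjusted p = 0.116). The count was 9 without ZT0 replicate 4, 5 without ZT0 replicate 1 or 5, and 4 without ZT12 replicate 3.

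Acsl4, which activates arachidonic acid and belongs to the list of fatty acid synthesis, had the largest fall. It read 6.84, 5.35, 5.18 and 6.34 at ZT12, against 8.09, 7.53, 8.44, 9.05 and 8.32 at ZT0 (-2.36 ± 0.50, adjusted p = 0.00139). It was the only called gene among 22 of that list, with no overlap between the times, and was called in all 9 omissions. Ch25h, which makes 25-hydroxycholesterol, an inhibitor of SREBP processing, changed by -1.66 ± 0.46 (adjusted p = 0.0159), a call that 4 omissions ended. The sterol response element, searched as TCACNCCAC on both strands, stood in 1.05% of all promoters and in 0 of the 7 called cholesterol genes that the table held. Ppara, the receptor that drives fatty acid oxidation in fasting, was higher: it read 8.57, 8.53, 8.65 and 8.51 at ZT12, against 6.97, 8.11, 7.50, 7.46 and 7.69 at ZT0. Its rise of 1.02 ± 0.21 (adjusted p = 0.001) held in all omissions. The other 22 genes of that list gave 1 call, Eci1 (0.53 ± 0.18), which 7 of the 9 omissions ended.

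In the amino acid response 7 of 15 tested genes were called lower at ZT12 and none was called higher. The list was split in sign, with 8 negative and 7 positive changes, and the median was -0.42. Trib3, a pseudokinase induced by Atf4, read 5.07, 5.47, 5.12 and 5.33 at ZT12, against 6.80, 5.73, 5.61, 6.07 and 7.53 at ZT0. The lowest ZT0 array was still above the highest ZT12 array, and the change was -1.10 ± 0.17 (adjusted p = 9.79e-06). Chac1, which degrades glutathione, read 4.79, 4.48, 4.75 and 4.88 at ZT12, against 7.94, 5.18, 5.41, 4.76 and 8.36 at ZT0. Its ZT12 arrays were near background, ZT0 replicates 1 and 5 stood far above all others, and replicate 4 lay among the ZT12 arrays (-1.60 ± 0.35, adjusted p = 0.00189). Its size is therefore a difference from a level at the filter on dim genes (4.735). Sesn2, a leucine sensor that restrains mTORC1, read 8.87, 9.23, 8.19 and 9.22 at ZT12, against 10.38, 10.07, 10.20, 9.44 and 10.35 at ZT0 (-1.21 ± 0.30, adjusted p = 0.00686). The arginine carrier Slc7a1 changed by -1.17 ± 0.27 (adjusted p = 0.00361). The calls of Sesn2 and Slc7a1 were lost without ZT12 replicate 3 (adjusted p = 0.0771 and 0.0717), and 4 of the 15 genes were called without it. Slc3a2, Nupr1 and Asns, outside the naming rule, were the other 3 called, and Atf4 itself changed by -0.42 and missed the threshold (adjusted p = 0.0889).

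Aars, the alanyl-tRNA synthetase, was not on that list and was named by the comparison with adult mice given further on. It read 7.61, 7.14, 7.37 and 7.69 at ZT12, against 8.90, 8.03, 8.38, 8.39 and 8.90 at ZT0, a change of -1.07 ± 0.16 (adjusted p = 4.32e-06). The element bound by Atf4 with its partners was searched as TGATGNAA on both strands. It stood in the promoters of Chac1, Nupr1 and Asns, 3 of the 7 called genes, where 3.45% of all promoters hold it. As above, the count is per gene and the share per promoter. The stretches are shown because the element is the one their list is named for, with the element in capitals. They lie at chr2:119351014-119351091 (plus strand) for Chac1, chr7:126625538-126625615 (minus) for Nupr1 and chr6:7693210-7693267 (minus) for Asns, and the first 2 hold it on the opposite strand.
Chac1: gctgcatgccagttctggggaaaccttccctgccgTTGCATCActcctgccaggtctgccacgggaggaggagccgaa
Nupr1: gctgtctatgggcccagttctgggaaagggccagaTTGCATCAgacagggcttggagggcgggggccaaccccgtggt
Asns: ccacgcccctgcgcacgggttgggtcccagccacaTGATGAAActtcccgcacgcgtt

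Genes of the unfolded protein response were divided. Of 20 tested, 4 were called lower, among them the calcium-binding chaperones Calr (-0.93 ± 0.25) and Canx (-0.38 ± 0.12), Hyou1 (-1.04 ± 0.30) and Ddit3, named after its value was seen (-0.50). The other probe sets of Hyou1 changed by -0.121 and 0.144. Herpud1, which helps clear misfolded proteins from the endoplasmic reticulum, was the 1 called higher, with 10.34, 10.31, 10.28 and 10.17 at ZT12, against 9.60, 9.85, 9.33, 9.41 and 9.81 at ZT0. Its rise of 0.67 ± 0.14 (adjusted p = 0.00114) held in all 9 omissions, whereas 0 of the genes called lower were still called without ZT12 replicate 3 and 1 without ZT12 replicate 2. Among 15 heat shock genes, Hspb8 (0.74 ± 0.14, adjusted p = 0.000716) and Hsph1 (0.91 ± 0.23, adjusted p = 0.00769) were higher, without overlap and in all omissions. Hspa4 (-0.32 ± 0.13) missed the threshold, and another of its probe sets changed in the opposite direction.

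Some markers of the hair follicle were lower at ZT12. Sox9, a transcription factor on the list of the bulge, read 8.51, 7.04, 7.62 and 8.50 at ZT12, against 9.61, 9.23, 9.54, 9.65 and 9.64 at ZT0. The ZT0 arrays were close together and all above the ZT12 arrays, and the change was -1.61 ± 0.39 (adjusted p = 0.00538). Defb6, an antimicrobial peptide of the infundibulum, read 8.28, 6.67, 7.36 and 8.18 at ZT12, against 9.78, 9.99, 8.39, 7.40 and 10.32 at ZT0. Its groups overlapped through ZT0 replicate 4, and the change of -1.55 ± 0.48 (adjusted p = 0.0326) was lost in 5 of the 9 omissions, with an adjusted p of up to 0.146. Of the 7 tested markers of infundibulum and isthmus all 7 had a negative change and 3 were called, Gata6 (-0.79 ± 0.19), Cst6 (-1.02 ± 0.31) and Defb6. The count was 1 without ZT0 replicate 1, 2 or 5 and without ZT12 replicate 2 or 3, and Gata6 alone was called in all 9 omissions. The mean level of that list was 8.01 to 8.62 on the ZT12 arrays, against 8.26 to 9.51 on the ZT0 arrays. Of the 8 tested bulge markers Sox9 and Foxc1 (-1.05 ± 0.26) were called lower and Krt15 (0.25 ± 0.07) higher. The mean over all 12 measured bulge markers, those below the filter included, was 6.63 to 6.71 at ZT12, against 6.86 to 7.05 at ZT0. The mean of the 7 basal markers was 11.79 to 11.88 at ZT12, against 11.54 to 11.74 at ZT0, and that of the differentiating markers 8.04 to 8.22 at ZT12, against 7.73 to 8.38 at ZT0. The list means of bulge and basal markers did not overlap between the times, and their part in the other changes was not tested. The markers named in these sentences outside the rule were chosen with their values known.

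Genes of cell contact, matrix and signalling gave a few calls each, where 7.83% of all genes were called. Cdh1 (E-cadherin), the adhesion protein of epithelial junctions, read 9.96, 9.74, 9.36 and 10.00 at ZT12, against 10.84, 10.31, 10.67, 10.33 and 10.61 at ZT0 (-0.79 ± 0.17, adjusted p = 0.00139). Of 19 junction genes 3 were called lower, Cdh1, Cgn (cingulin, -0.71 ± 0.18) and Jup (plakoglobin, -0.37 ± 0.12), and the median was -0.31. Cdh1 and Cgn held in all omissions, and Jup was lost in 5. Col4a1, a basement membrane collagen, changed by -0.90 ± 0.21 (adjusted p = 0.00368) without overlap and in all omissions. The integrin subunits Itga2 (-0.997 ± 0.29) and Itgb6 (-1.78 ± 0.49) were called lower, and both were lost without ZT12 replicate 3 (adjusted p = 0.097 and 0.112) and without ZT0 replicate 1 (0.104 and 0.0529). Itgb6 was also lost without ZT12 replicate 2 (adjusted p = 0.0666). Lamb3, a laminin chain, was called higher (0.75 ± 0.24) and was lost in 6 omissions, without ZT0 replicate 4 among them (0.43, adjusted p = 0.269). Of 22 cytokines and antimicrobial genes 4 were called lower, Tslp (-1.36 ± 0.33), Cxcl16 (-0.73 ± 0.20), Ccl20 (-0.55 ± 0.16) and Defb6, and 2 of them without ZT0 replicate 1, ZT0 replicate 5 or ZT12 replicate 3.

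Among 24 genes of TGF-beta and BMP signalling, 3 were called higher and 1 lower. Id1, an inhibitor of bHLH factors that BMP induces and 1 of the 14 largest rises, read 8.60, 9.21, 8.62 and 9.24 at ZT12, against 7.18, 8.01, 6.62, 6.91 and 7.68 at ZT0 (1.64 ± 0.33, adjusted p = 0.000922). Its relative Id2 read 7.73, 7.75, 7.56 and 7.40 at ZT12, against 6.80, 7.06, 6.70, 6.64 and 6.94 at ZT0 (0.79 ± 0.18, adjusted p = 0.00428). Both held in all omissions without overlap, while Id4 (0.70 ± 0.21) was lost without ZT0 replicate 4 or without ZT12 replicate 1 or 4 (adjusted p 0.0781 to 0.156). Skil (SnoN), a brake on TGF-beta signalling, changed by -1.74 ± 0.46 (adjusted p = 0.0101) and was lost without ZT12 replicate 3 (adjusted p = 0.148). The median of the list was -0.03. Vdr, the vitamin D receptor, changed by -0.69 ± 0.15 (adjusted p = 0.00157), with 7.84 to 8.42 at ZT12, against 8.55 to 8.96 at ZT0. The growth hormone receptor Ghr (-0.60 ± 0.15) was called lower too, without overlap, and was lost without ZT12 replicate 3. Of 25 Wnt genes none was called.

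Calls in glycolysis and oxidative phosphorylation were lost with single arrays. Over all genes 5.02% were called higher at ZT12. Of 18 glycolysis genes 4 were called higher, Ldha (0.49 ± 0.13), Pfkl (0.91 ± 0.25), Pfkfb3 (1.10 ± 0.31) and Pfkp (0.47 ± 0.14), and none without ZT0 replicate 4. The changes were then 0.36, 0.72, 0.95 and 0.31 in that order (adjusted p 0.0565 to 0.156), so that Pfkl and Pfkfb3 kept most of their size. Ldha, lactate dehydrogenase, read 11.62, 11.75, 11.59 and 11.77 at ZT12, against 11.24, 11.35, 11.33, 10.66 and 11.39 at ZT0, where replicate 4 lay apart below the others. The groups did not overlap, which leaving out the lowest ZT0 array cannot alter. Without ZT12 replicate 2 the list gave 2 calls, and Pfkfb3 was also lost without ZT12 replicate 4. Of 27 genes of oxidative phosphorylation Atp5c1 and Sdha were called higher, and none without ZT0 replicate 4 or without ZT12 replicate 3, while 6 of the 9 omissions ended the call of Sdha. Their list median was 0.31 with all arrays and 0.11 without ZT0 replicate 4. Sod2, the superoxide dismutase of mitochondria, kept its call in all omissions: it read 10.29, 10.25, 10.40 and 10.58 at ZT12, against 9.59, 9.97, 9.52, 8.69 and 9.64 at ZT0. Its rise was 0.90 ± 0.14 with all arrays and 0.70 without replicate 4 (adjusted p = 8.48e-06 and 0.000236).

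Immediate early genes, which respond within minutes to growth signals and stress, gave 4 calls among 23. Over all genes 7.83% were called, a share to set beside this and the following counts. Junb, a subunit of AP-1, read 10.32, 10.94, 10.76 and 10.74 at ZT12, against 9.68, 10.30, 9.92, 9.74 and 10.06 at ZT0 (0.75 ± 0.18, adjusted p = 0.00478). Its groups lay just apart and the call held in all omissions. The factor Klf2 changed by 1.27 ± 0.32 and Ier2 by 1.02 ± 0.27, while Fosl2, another AP-1 subunit, changed by -0.62 ± 0.21. The other probe set of Fosl2 changed by 0.004. Ier2 and Fosl2 were not called without ZT0 replicate 4 (adjusted p = 0.0527 and 0.116), and Klf2 was not called without ZT0 replicate 1. Spry2, a feedback inhibitor of receptor tyrosine kinases, was the 1 called of 16 EGFR pathway genes (1.02 ± 0.26, adjusted p = 0.00758), and another of its probe sets changed the opposite way. Of 20 genes of autophagy and FoxO, the ubiquitin ligase Fbxo32 (0.85 ± 0.23) and the lysosomal regulator Tfeb (0.51 ± 0.15) were called higher. Neither overlapped between the times, and both calls were lost without ZT12 replicate 3. Of 15 interferon genes, Usp18 was called higher and the RNA sensor Ddx58 lower (-0.52 ± 0.17). Of 13 Notch genes, the co-activator Maml1 was called lower (-0.88 ± 0.28), and 4 of the 9 omissions ended its call (adjusted p up to 0.215). Of 20 antioxidant genes, Sod2 and Aldh3a1 (0.76 ± 0.24) were called higher and the quinone reductase Nqo1 lower (-0.56 ± 0.18). Of 14 hypoxia genes, Ankrd37 was called (0.61 ± 0.18). The calls of Ddx58, Aldh3a1, Nqo1 and Ankrd37 were lost without ZT0 replicate 4 (adjusted p 0.0619 to 0.161).

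Other genes among the largest rises and falls had varied roles. Tppp3, a tubulin-binding protein, read 10.59, 10.71, 10.78 and 10.48 at ZT12, against 8.55, 9.60, 8.20, 8.05 and 9.23 at ZT0 (1.91 ± 0.30, adjusted p = 8.48e-06). The amino acid carrier Slc43a1 (1.43 ± 0.31), the matrix protein Papln (1.41 ± 0.30), the deubiquitinase-like Usp18 of the interferon list, which removes ISG15 (1.39 ± 0.33), and the cytochrome P450 Cyp2b10 (1.33 ± 0.31) rose without overlap and in all omissions. The poly(A) polymerase Tent5b (1.65 ± 0.34) rose in all omissions with overlapping arrays. Rgcc, a regulator of the cell cycle, changed by 1.41 ± 0.35, and its call was lost without ZT12 replicate 4 (adjusted p = 0.0531). Among the falls, Pde4b, which degrades cyclic AMP, read 9.39, 8.95, 8.05 and 9.45 at ZT12, against 11.16, 10.81, 11.07, 9.99 and 11.25 at ZT0 (-1.89 ± 0.42, adjusted p = 0.00229). Stx11, a syntaxin of vesicle fusion, changed by -1.93 ± 0.46 with all arrays and by -2.56 without ZT0 replicate 4 (adjusted p = 0.00476 and 6.28e-05). That array, at 5.80, lay among the ZT12 arrays. Pde4b and Stx11 held in all omissions. Tsc22d2 (-1.91 ± 0.51), Abtb2 (-1.69 ± 0.50) and Mapk1ip1l (-1.67 ± 0.44) were lost in 1, 4 and 2 omissions, Mapk1ip1l without ZT0 replicate 4 among them (adjusted p = 0.0525).

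The fit of the 9 arrays alone called 4 genes beyond those named so far, which are given here because they passed the strictest fit, with their values known. Ass1, the argininosuccinate synthase of arginine and urea metabolism, read 8.28, 8.36, 8.97 and 8.70 at ZT12, against 7.36, 7.11, 7.25, 7.40 and 7.15 at ZT0 (1.32 ± 0.25, adjusted p = 0.0211 in that fit). Dab1, an adaptor of reelin signalling, was the only gene lower, with 7.66, 7.09, 7.61 and 7.78 at ZT12, against 8.54, 8.88, 9.40, 9.01 and 8.997 at ZT0 (-1.43 ± 0.27, adjusted p = 0.0308 in that fit). Tmod4, a tropomodulin that caps actin filaments, and Nt5dc2 rose by 1.19 ± 0.20 and 1.24 ± 0.24 (adjusted p = 0.0308 each in that fit). No array overlapped in any of the 4. The SD of the ZT0 arrays was 0.129 for Ass1, 0.223 for Tmod4, 0.255 for Nt5dc2 and 0.31 for Dab1. The fit with a spread for each group weights whole groups alike for all genes and does not use these SDs of single genes. In that fit the adjusted p of Tmod4 was 0.0584 and that of Ass1 0.0928, with Dab1 and Nt5dc2 between, so none was called there.

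Over the 6 times sampled in aged CR, the 10 called clock repressors and output factors, and Rora, had their highest mean at ZT8. Per2 averaged 6.01 at ZT0, 6.81 at ZT4, 8.27 at ZT8, 8.05 at ZT12, 6.57 at ZT16 and 6.08 at ZT20. Tef averaged 8.15, 9.06, 9.69, 9.34, 8.81 and 8.00 in that order of times, and Dbp 6.14, 7.73, 8.35, 7.17, 6.05 and 5.84. Dbp at ZT12 was thus already below its ZT8 mean by over 1 unit. Among the others, the ZT8 means were 9.23 for Per3, 9.76 for Per1, 8.63 for Cry2, 7.58 for Ciart, 9.72 for Hlf, 10.83 for Wee1 and 11.45 for Rora. Their ZT12 means were 8.38, 9.19, 8.49, 6.83, 9.55, 10.55 and 11.44 in the same order, nearly equal to ZT8 for Rora. Tsc22d3 and Fkbp5 had a different course, low at ZT0 alone: Tsc22d3 averaged 6.80 at ZT0 and 9.14 to 9.90 at the 5 other times, and Fkbp5 6.75 at ZT0 and 8.84 to 9.55 at the others. Arntl was lowest at ZT8 (6.96) and highest at ZT20 (9.14), so that ZT12 (8.34) and ZT0 (8.79) both lay between. Insig1 was highest at ZT0 (10.02) and lowest at ZT12 (7.86), and Idi1 likewise (9.66 and 7.93). Chac1 averaged 6.33 at ZT0 and 4.47 to 4.73 at the other 5 times, and Trib3 6.35 and 5.24 to 5.72. Ttk was highest at ZT0 (7.92) and ZT20 (7.92) and lowest at ZT12 (7.09), whereas Mcm3 was highest at ZT8 (8.40). These means describe the course and were not tested against each other.

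**Figure D4:**
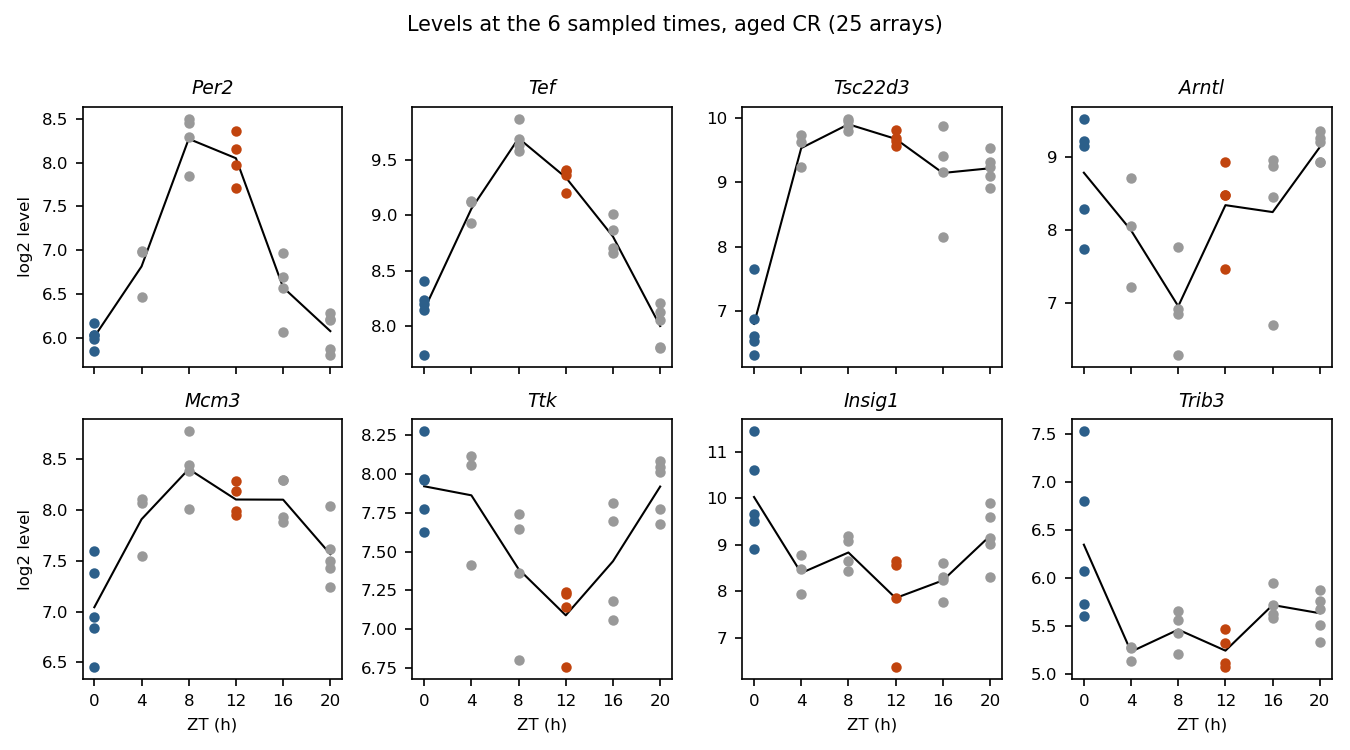
Log2 level of 8 genes at the 6 sampled times in aged CR (x axis, ZT in h), each point an array (25 in all), ZT12 in orange, ZT0 in blue and the other times in grey, with a line through the means. Per2 and Tef peak at ZT8, Tsc22d3 is low at ZT0 only, Arntl is lowest at ZT8, and Insig1 and Trib3 are highest at ZT0.

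The same comparison was made in aged mice on control diet and in adult mice under CR. In aged control 689 genes (5.15%) were called, 423 (3.16%) higher and 266 (1.99%) lower. In adult CR 784 (5.86%) were called, 569 (4.25%) higher and 215 (1.61%) lower. Aged CR shared 180 higher calls with aged control, 26.8% of its own and 42.6% of the other, and 111 lower calls (29.5% and 41.7%). With adult CR it shared 275 higher (40.9% and 48.3%) and 104 lower calls (27.7% and 48.4%). No gene was called in opposite directions. A call in one condition and none in another does not show a difference, so the difference itself was tested.

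By limma, the change in aged CR differed from that in aged control for 1 gene (0.00747%), and at an unadjusted p under 0.05 there were 579. The gene was Sphk2, a sphingosine kinase, which rose by 1.54 ± 0.31 in aged CR and by 3.79 ± 0.33 in aged control, a difference of -2.26 ± 0.45 (adjusted p = 0.0363). In aged CR it read 8.75, 8.85, 8.70 and 9.26 at ZT12, against 6.81, 7.98, 6.94, 7.41 and 7.63 at ZT0, without overlap. The difference was between -2.39 and -2.10 in the 9 omissions of an aged CR array, and 6 of them ended the call (adjusted p up to 0.198). Sphk2 overlaps Dbp on chromosome 7, and its second probe set changed by 0.06 in aged CR. Dbp rose by 1.02 ± 0.29 in aged CR and by 2.90 ± 0.31 in aged control, a difference of -1.88 ± 0.43 that missed the threshold (adjusted p = 0.222). Arntl changed by -0.44 ± 0.44 in aged CR and by -2.11 in aged control, where it was called (adjusted p = 0.00229), and that difference was not among those past the threshold. Per2 rose by 2.04 ± 0.18 in aged CR, by 2.03 in aged control and by 2.21 in adult CR.

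Between aged CR and adult CR no gene passed (0%), and 318 had an unadjusted p under 0.05. The smallest p values, none past the threshold (adjusted p = 0.9995 each), belonged to Aars, Has1, Ppp1r14c, Tcte3, Myo1d and Zscan22. Aars changed by -1.07 ± 0.16 in aged CR and by -0.24 in adult CR, and Has1, a hyaluronan synthase, by 0.12 ± 0.14 in aged CR and by -0.60 in adult CR. Replication genes gave 12 calls of 34 in aged CR, 23 in aged control and 22 in adult CR, with medians of 0.46, 0.81 and 0.64. Cholesterol genes gave 9 lower calls of 19 in aged CR, 5 in aged control and 2 in adult CR, with medians of -0.53, -0.50 and -0.32. The amino acid response gave 7, 6 and 2 lower calls in that order, with medians of -0.42, -0.51 and -0.17. Glycolysis gave 4 calls in aged CR, and 0 there without ZT0 replicate 4, as in each of the others. Single genes of these lists did not pass the tests of the difference, and no list was tested as a whole.

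**Figure D5:**
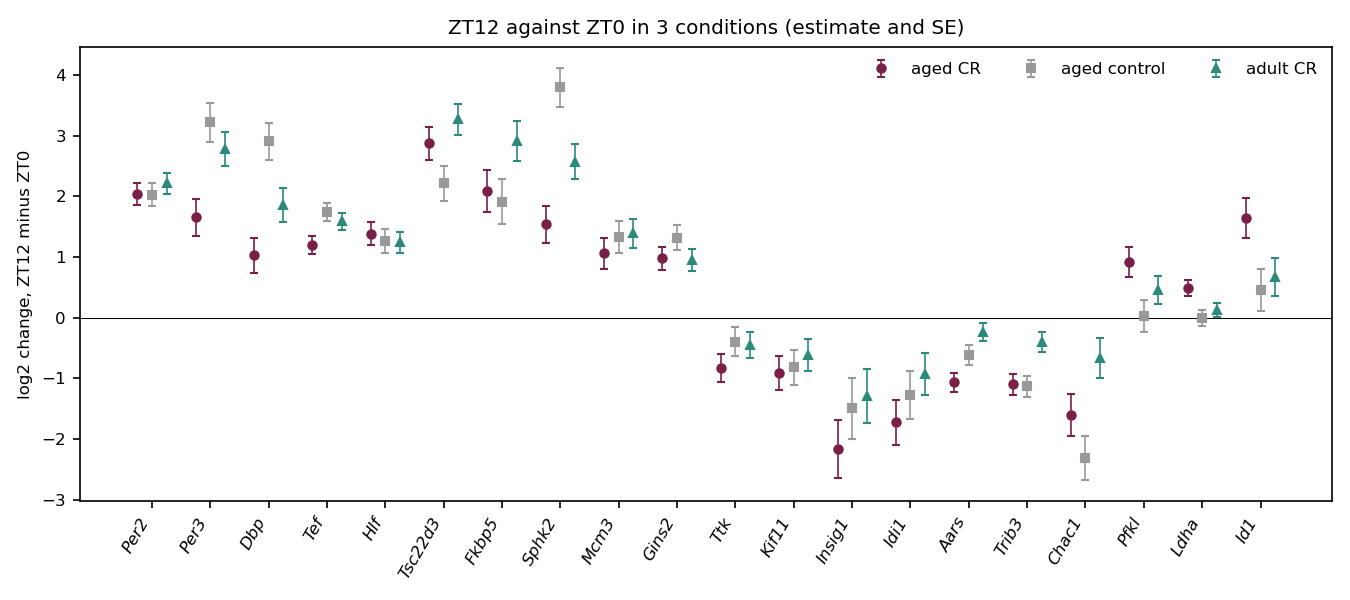
Log2 change (ZT12 minus ZT0) with its standard error for 20 genes in aged CR (circles), aged control (squares) and adult CR (triangles). Per2 and Hlf lie close together in all 3 conditions. The points of Per3, Dbp and Sphk2 lie lowest in aged CR, and the difference passed the threshold for Sphk2 against aged control.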

How the data were processed

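RNA of epidermal stem cells was amplified and hybridised to arrays. The authors deposited log2 values made with RMA, per the submitters' processing notes. Its version is not given in the sources used here, nor are signals before background correction. No array was normalized again for the main test. Each gene was read from its brightest probe set with 1 gene symbol. Genes whose mean lay under the 30th percentile (log2 4.735) were left out, which kept 13383. limma 3.58.1 in R 4.3.3 fitted a mean for each of the 24 groups over all arrays (lmFit, eBayes, Benjamini-Hochberg) and was tested on simulated data. The simulated noise of a gene had the same spread in every group, so that test does not cover the uneven groups compared here. Named genes were the 14 largest rises and falls past the threshold, the tested clock genes, the 4 smallest p of each list, and, for the differences between conditions, the called gene or the 6 smallest p. Exceptions are marked. The members, lists and naming rule were chosen with earlier results of these data known. The number of arrays limits the precision. Alternatives left out arrays and changed the arrays fitted, spread, filter, scaling, probe set rule and covariates. Fits with group spreads, without ZT0 replicate 4 on the 9 arrays, without ZT0 replicates 3 and 4, and with the Gapdh covariate were chosen after seeing the data.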

Additional observations from a re-analysis of the deposited data

Results flagged for a closer look

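Among the 149 named genes, 298 groups of 4 or 5 arrays were searched for an array far from the others of its group, and 10 such arrays were found, where chance gives about 1 in 20. Of these, 3 fell on ZT0 replicate 4, the lowest of its group for Klf10 (9.63), Ldha (10.66) and Atp5a1 (9.90). ZT0 replicate 2 was lowest for Idi1 (8.81) and Sox9 (9.22). ZT0 replicate 1 was highest for Adm (8.66), and ZT0 replicate 5 was highest for Ccl20 (6.70). ZT12 replicate 3 was highest for Rad50 (8.16), and ZT12 replicate 4 was highest for Lamp1 (11.08) and Ier2 (10.32). The rise of Sphk2 at ZT12 was smaller in aged CR than in aged control, with a difference of -2.26 by the interaction term in limma.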

How the results depend on the processing

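The 101 named calls kept their direction under each of the 25 alternatives run, of which the filter at the 50th percentile tested 94. Many lost their call: 48 were called in all 9 omissions of an array, 64 without ZT12 replicate 3, 13 with group spreads and 5 on the 9 arrays alone. Leaving out 1 array gave 381 to 1614 calls, 270 to 1146 higher and 111 to 468 lower. ZT0 replicate 3 left 393 higher and ZT0 replicate 4 left 399. The 9 arrays alone gave 9 calls (8 higher, 1 lower), group spreads 37 (29 and 8), and the 9 arrays without ZT0 replicate 4 gave 37 (20 and 17). Without ZT0 replicates 3 and 4, which had the highest Gapdh 3′ over 5′ level, 415 were higher and 677 lower. Lower calls numbered 665 with arrays centred on their median, 670 with quantile normalization repeated (861 higher) and 627 with the array background as a covariate. The difference from aged control, 1 call, gave 0 to 1 when 1 array was left out, 0 with no filter, with the mean of probe sets and with the Xist covariate, 2 in the 4 groups alone and 3 with array weights. The difference from adult CR, 0 calls, gave 14 with array weights. Between same-numbered arrays of ZT0 and ZT12, the deviations from the group means had correlations of 0.466, -0.464, 0.384 and -0.481. Mice of a collection day shared their time point, so these values cannot show a pairing by day. A pairing of the diets within a day was not examined. The replicate block gave 952 calls, and 0 for the difference from aged control. The causes of these changes in the counts were not tested.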
